A study of Homo sapiens with 12 samples.

Results

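The genes described here are 58 genes of human chromosome 17 that encode signalling proteins, tumour suppressors, oncoproteins and large cellular machines, from *ERBB2*, *GRB2*, *STAT3* and *BRCA1* to *POLR2A*, *ACTG1* and *CLTC*. They were chosen by symbol with earlier results of the same counts in view: the values behind the choice were the lower read counts of chromosome 17 genes in *NFKB1* S80A cells than in wild type cells. All 58 were found among the 33093 gene rows used, and 56 of them had enough reads to be among the 14383 genes tested. The exceptions were *GRB7*, an adaptor that binds receptor tyrosine kinases, and *STAT5A*, a cytokine-activated transcription factor. *GRB7* had a mean of 1.31 normalised counts over the 12 samples and *STAT5A* a mean of 2.45, so neither could be compared.

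RNA was sequenced from wild type (WT) HEK293T cells, a line derived from human embryonic kidney, and from *NFKB1* S80A cells, in which CRISPR/Cas9 and a donor oligonucleotide replaced serine 80 of the NF-κB subunit p50, and of its precursor p105, with alanine. Cells of each genotype were left untreated or received 10 ng/ml TNFα for 3 h, with 3 samples in each of the 4 groups, which the study describes as independently generated. Before editing, the cells were treated with nocodazole, which arrests cells in mitosis, and edited cells were selected with puromycin and grown up from single cells by dilution. The number of clones sequenced is not given in the sources used here. The edit and any other difference between a clone and its parent line cannot be told apart in this design.

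Chromosome 17 carries genes from several growth pathways. Receptor tyrosine kinases such as ERBB2 recruit GRB2 to switch on RAS, which neurofibromin, the product of *NF1*, switches off. The MAP kinase kinases relay stress and cytokine signals to p38 and JNK, STAT proteins carry cytokine signals straight to the nucleus, and MAP3K14, also called NIK, drives the non-canonical NF-κB pathway.

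Library totals ran from 15624878 to 20889577 reads counted in genes, and the 10 most abundant genes took 3.12 to 3.44% of them. Samples of the same group differed by more than counting error in every pair, with a chi-square per gene between 2.85 and 37.0, and untreated S80A replicate 2 was the library farthest from its group (37.0 and 21.7 from replicates 1 and 3). Relative to the mean of all libraries, untreated S80A replicate 2 and treated S80A replicate 3 had lower values in longer transcripts (Spearman rho over 13615 genes of -0.31 and -0.36), untreated WT replicates 2 and 3 and WT TNFα replicate 3 less so (-0.20, -0.23 and -0.15), and WT TNFα replicates 1 and 2 and untreated S80A replicate 2 had lower values in GC-rich transcripts (rho of -0.38, -0.46 and -0.38). *NFKBIA*, *TNFAIP3*, *RELB* and *NFKB1* rose with TNFα in both genotypes, as the treatment labels state, whereas gene counts do not show the edited codon. Markers of blood and endothelium were at most 0.13 CPM (counts scaled to the library total). The kidney line marker *NEFM* averaged 1838 normalised counts in untreated WT cells and 4.5 in untreated S80A cells. Other markers of the line were similar or higher in untreated S80A cells: *NEFL* (866 in WT, 1021 in S80A), *VIM* (10593, 10398), *KRT18* (670.5, 923.9) and *PAX2* (23.7, 27.8). *LHX1* (33.7, 22.4) and *KRT8* (92.1, 58.6) were lower. Of the fibroblast markers, *COL1A1* had at least 5.85 CPM and *DCN* at most 0.0558 CPM. The part of these differences in the results below was not tested.

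In *NFKB1* S80A cells the chromosome 17 genes were lower by a similar, small amount. In untreated cells 55 of the 56 tested genes had a negative log2 fold change against WT, where 47.4% of all tested genes did, with a median of -0.31, quartiles of -0.41 and -0.22 and a full range of -1.25 to 0.33. At the median an S80A sample held 0.804 of the WT level, that is, 19.6% less. After TNFα, 53 of 56 were negative, against 50.7% of all genes, with a median of -0.27, quartiles of -0.37 and -0.21 and a range of -1.11 to 0.29. A typical gene's standard error was 0.09 in either comparison, and the SD between the genes was 0.24 and 0.23.

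The edgeR quasi-likelihood test, adjusted over all 14383 genes by the Benjamini-Hochberg method, called 24 of the 56 lower in untreated S80A cells, where 4.21% of all genes were called lower, and 19 of 56 lower after TNFα, against 4.44%. None was called higher in either, where 2.05% and 2.92% of all genes were. In both comparisons 14 of the 56 were called lower (2.64% of all genes), 10 only in untreated cells and 5 only after TNFα, so that 29 were called in at least 1 (6.01% of all genes), and 53 had a negative change in both (32.2% of all genes). In 38 genes every untreated S80A sample lay below every untreated WT sample (13.3% of all genes did), and in 41 this was so after TNFα (13.2% of all genes). Because the genes were listed for this difference, these counts describe them and test nothing. The counts of calls moved with single libraries: the untreated count was 8 without untreated WT replicate 2, 11 without untreated WT replicate 3 and 14 without untreated S80A replicate 3. After TNFα it was 8 and 11 without S80A TNFα replicates 1 and 2, 12 and 10 without WT TNFα replicates 1 and 2, and 30 without untreated S80A replicate 2. Of the 24 and 19 called genes, 8 and 8 passed with any library left out. The medians stayed between -0.36 and -0.29 and between -0.29 and -0.25 when each library was left out in turn.

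**Figure D1:**
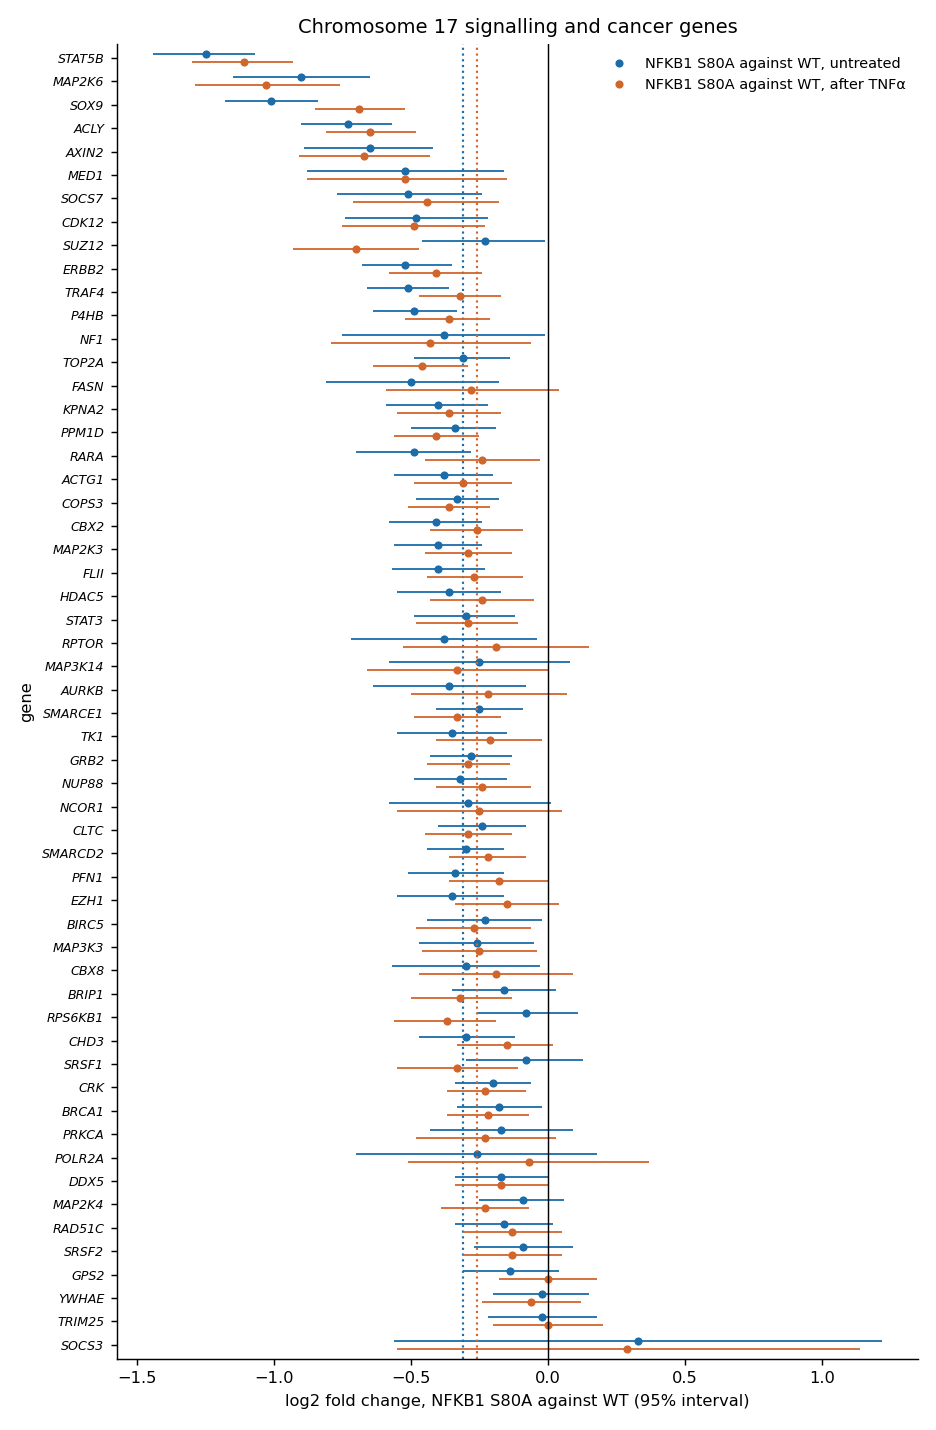
Log2 fold change of each of the 56 tested genes, *NFKB1* S80A against WT, untreated (blue) and after TNFα (orange), with 95% intervals and 3 samples per group. Dotted lines mark the medians of the other 752 tested chromosome 17 genes, -0.31 and -0.26; most genes sit on them, *STAT5B*, *MAP2K6*, *SOX9*, *ACLY* and *AXIN2* lie to the left, and *TRIM25* and *YWHAE* lie to the right near 0.

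The shift was seen sample by sample. Set against the untreated WT mean, the median of the 56 genes was -0.30, -0.36 and -0.28 in the untreated S80A samples and -0.29, -0.21 and -0.33 in the treated S80A samples, on the log2 scale. In the 6 WT samples it lay between -0.01 and 0.04. No S80A sample came within the WT range. For the 13575 tested genes not placed on chromosome 17, which include symbols without a matched position, the same median never exceeded 0.02 in any sample.

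The rest of the chromosome had a shift of similar size at the median. The other 752 tested chromosome 17 genes had medians of -0.31 untreated and -0.26 after TNFα, against 0.03 and 0.01 for tested genes not placed on it. Of those 752 genes, 91.0% were negative in untreated cells and 88.0% after TNFα. Every 10 Mb stretch of the chromosome had a negative median, from -0.25 to -0.41 untreated and from -0.18 to -0.37 after TNFα. Medians of the other 22 chromosomes ran from -0.19, on chromosome 10, to 0.13, on chromosome 18, in untreated cells, and from -0.24, again on chromosome 10, to 0.09, on chromosome 19, after TNFα.

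**Figure D2:**
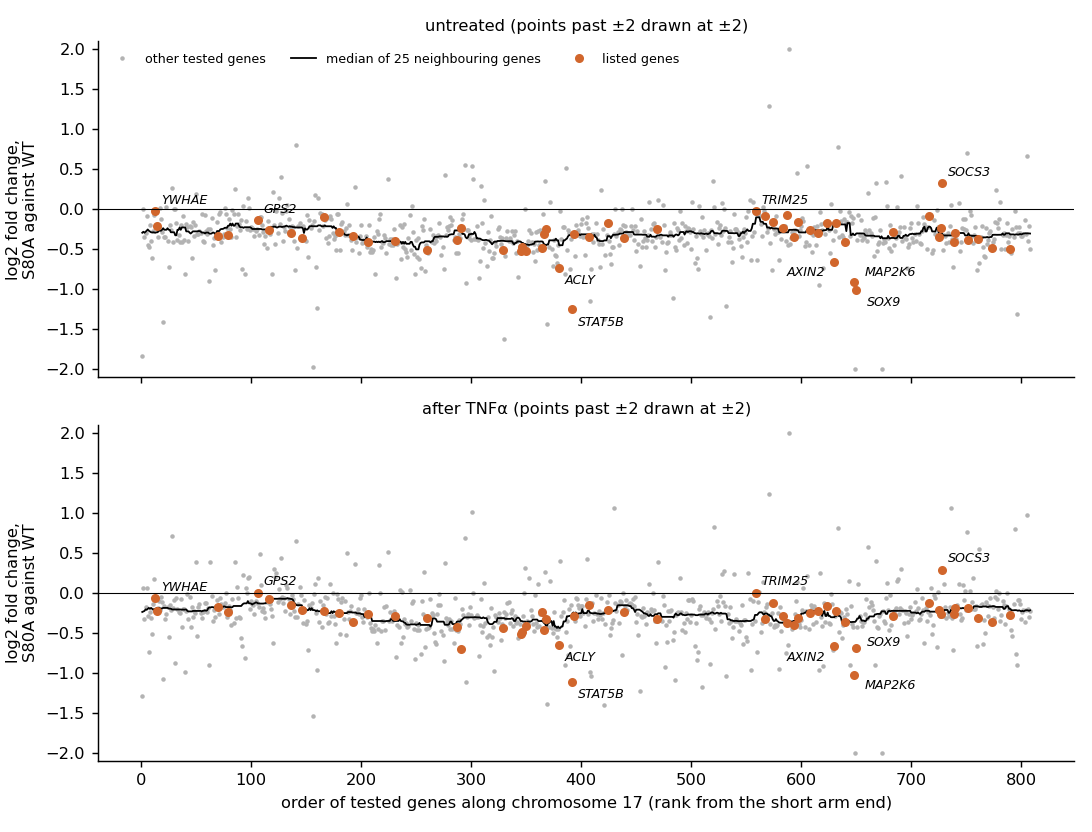
Log2 fold change of the 808 tested chromosome 17 genes in their order along the chromosome, *NFKB1* S80A against WT, with the listed genes in orange and the running median of 25 genes as a line. The line stays below 0 along the chromosome in both panels, and *STAT5B*, *ACLY*, *AXIN2*, *MAP2K6* and *SOX9* fall well under it.

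For most of the 56 genes the estimate was compatible with the chromosome's median. For 39 genes the 95% interval held the median of the other chromosome 17 genes in both comparisons, and 39 genes had a mean of the 2 comparisons between -0.2 and -0.5. For 5 genes, *STAT5B*, *MAP2K6*, *SOX9*, *ACLY* and *AXIN2*, the interval lay below that median both times, and for *TRIM25* and *YWHAE* it lay above it both times. The interval held 0 in both comparisons for 10 genes, which were *PRKCA*, *TRIM25*, *SOCS3*, *RAD51C*, *NCOR1*, *GPS2*, *POLR2A*, *SRSF2*, *DDX5* and *YWHAE*. These intervals rest on a normal approximation and are narrower than the edgeR test implies. For untreated *NF1* the interval ran from -0.75 to -0.01, while the unadjusted edgeR p was 0.0627. Just inside the bound of -0.1 used here to call a gene near 0 lay *GPS2*, with a mean of -0.07, and just outside it *SRSF2*, with -0.11.

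*STAT5B*, the STAT that carries growth hormone and prolactin signals, was lowered the most. Its normalised counts were 1169, 1147 and 1104 in untreated WT cells and 447, 481 and 508 in untreated S80A cells. After TNFα they were 1212, 1147 and 1229 in WT and 474, 585 and 603 in S80A cells. Every S80A sample lay far below every WT sample, at 0.42 of the WT level untreated and 0.462 after TNFα, with log2 fold changes of -1.25 ± 0.10 and -1.11 ± 0.09 (SE, n = 3 per group). It was the only listed gene lower by at least 2-fold in both comparisons, and 8.41% of its 75-base stretches also occur in *STAT5A*, which had almost no reads.

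*MAP2K6* encodes MKK6, a kinase that activates p38. It had 357, 316 and 309 normalised counts in untreated WT samples against 152, 189 and 185 in S80A. With TNFα the WT samples held 215, 219 and 249 and the S80A samples 94, 118 and 124. The groups did not overlap, and the log2 fold changes were -0.90 ± 0.13 and -1.03 ± 0.14 (SE). Its relatives *MAP2K3*, which also activates p38, and *MAP2K4*, which activates JNK, differed far less, by -0.40 ± 0.08 and -0.09 ± 0.08 in untreated cells. After TNFα they differed by -0.29 ± 0.08 and -0.23 ± 0.08, without overlap of the genotypes. *MAP2K3* was called lower in both comparisons, in 11 and 2 of 12 fits with a library left out, and *MAP2K4* in neither.

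*SOX9*, a transcription factor of cartilage, testis and progenitor cells, had 431, 403 and 443 normalised counts in untreated WT samples and 217, 204 and 212 in untreated S80A samples. After TNFα the values were 524, 537 and 545 against 326, 349 and 324. S80A cells thus held 0.496 of the WT level untreated and 0.622 after TNFα. The log2 fold changes were -1.01 ± 0.09 and -0.69 ± 0.08 (SE), and the samples of the genotypes did not overlap under either condition. *KCNJ2*, the only tested gene between *MAP2K6* and *SOX9*, differed by -2.31 untreated and -2.85 after TNFα. With *KCNJ2* among them, the 6 nearest tested neighbours of *SOX9* had medians of -0.35 and -0.42. Those of *MAP2K6* had medians of -0.27 and -0.42.

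*ACLY*, the ATP citrate lyase that supplies acetyl-CoA for lipid synthesis, had 18040, 16920 and 15915 normalised counts in untreated WT cells and 10952, 8962 and 10673 in untreated S80A cells. With TNFα it had 16647, 16376 and 17244 against 10701, 11260 and 10087. The fold changes were 0.601 and 0.638, with SEs of 0.08 on the log2 scale. *FASN*, the fatty acid synthase that uses this acetyl-CoA, was not called and differed by -0.50 ± 0.16 and -0.28 ± 0.16 on the log2 scale. Untreated S80A replicate 2 had 7656 normalised *FASN* counts where replicates 1 and 3 had 13882 and 12236, and without it the untreated difference was -0.28.

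*AXIN2*, a feedback inhibitor and target of Wnt signalling, had 294, 288 and 323 normalised counts in untreated WT cells and 211, 160 and 201 in untreated S80A cells. After TNFα it had 247, 230 and 231 in WT and 160, 134 and 149 in S80A cells. It was lower in S80A at either condition, by -0.65 ± 0.12 and -0.67 ± 0.12 on the log2 scale (SE). A read of *AXIN2* can be ambiguous, since 29.7% of its 75-base stretches also occur in another annotated gene. The same limit applies to other listed genes called lower in either comparison. Among them were *SMARCE1* (49.8% shared), *KPNA2* (10.7%), *PFN1* (8.46%) and *SUZ12* (6.2%). *SRSF1*, which was not called, also had shared stretches, while many listed genes had none.

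*SOCS7*, *MED1* and *CDK12*, all on the long arm, had mean differences of -0.48, -0.52 and -0.48. *MED1* is a Mediator subunit contacted by nuclear receptors, *CDK12* a kinase of elongating RNA polymerase II and *SOCS7* a suppressor of cytokine signalling. *MED1* had 3447, 3017 and 2572 normalised counts in untreated WT cells against 2496, 1398 and 2393 in S80A cells, and 3253, 3405 and 3279 against 2512, 2632 and 1800 after TNFα.

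The groups did not overlap, but for *MED1* the lowest values came from untreated S80A replicate 2 and treated S80A replicate 3, which both had lower values in longer transcripts. Untreated WT replicate 3, also low in longer transcripts, held the lowest WT value, and the part of transcript length in the difference was not tested. Without untreated S80A replicate 2 the *MED1* difference was -0.30, compared with -0.52 ± 0.19 with it. *CDK12* also had its lowest values in those S80A libraries, with 4481, 3852 and 3870 counts against 3317, 2197 and 3249 in untreated cells and 4417, 4522 and 4265 against 3383, 3316 and 2719 after TNFα, a difference of -0.48 ± 0.13 and -0.49 ± 0.13. Without untreated S80A replicate 2 the untreated *CDK12* difference was -0.31, and its calls passed in 2 of 12 fits with a library left out for untreated cells and in 4 of 12 after TNFα. *SOCS7* had 891, 871 and 807 against 693, 461 and 648, and then 946, 894 and 832 against 745, 651 and 566. Its differences were -0.51 ± 0.13 and -0.44 ± 0.13, and the untreated call passed in 4 of the 12 fits. *CDK12* was called in both comparisons, *SOCS7* in untreated cells only and *MED1* in neither.

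**Figure D3:**
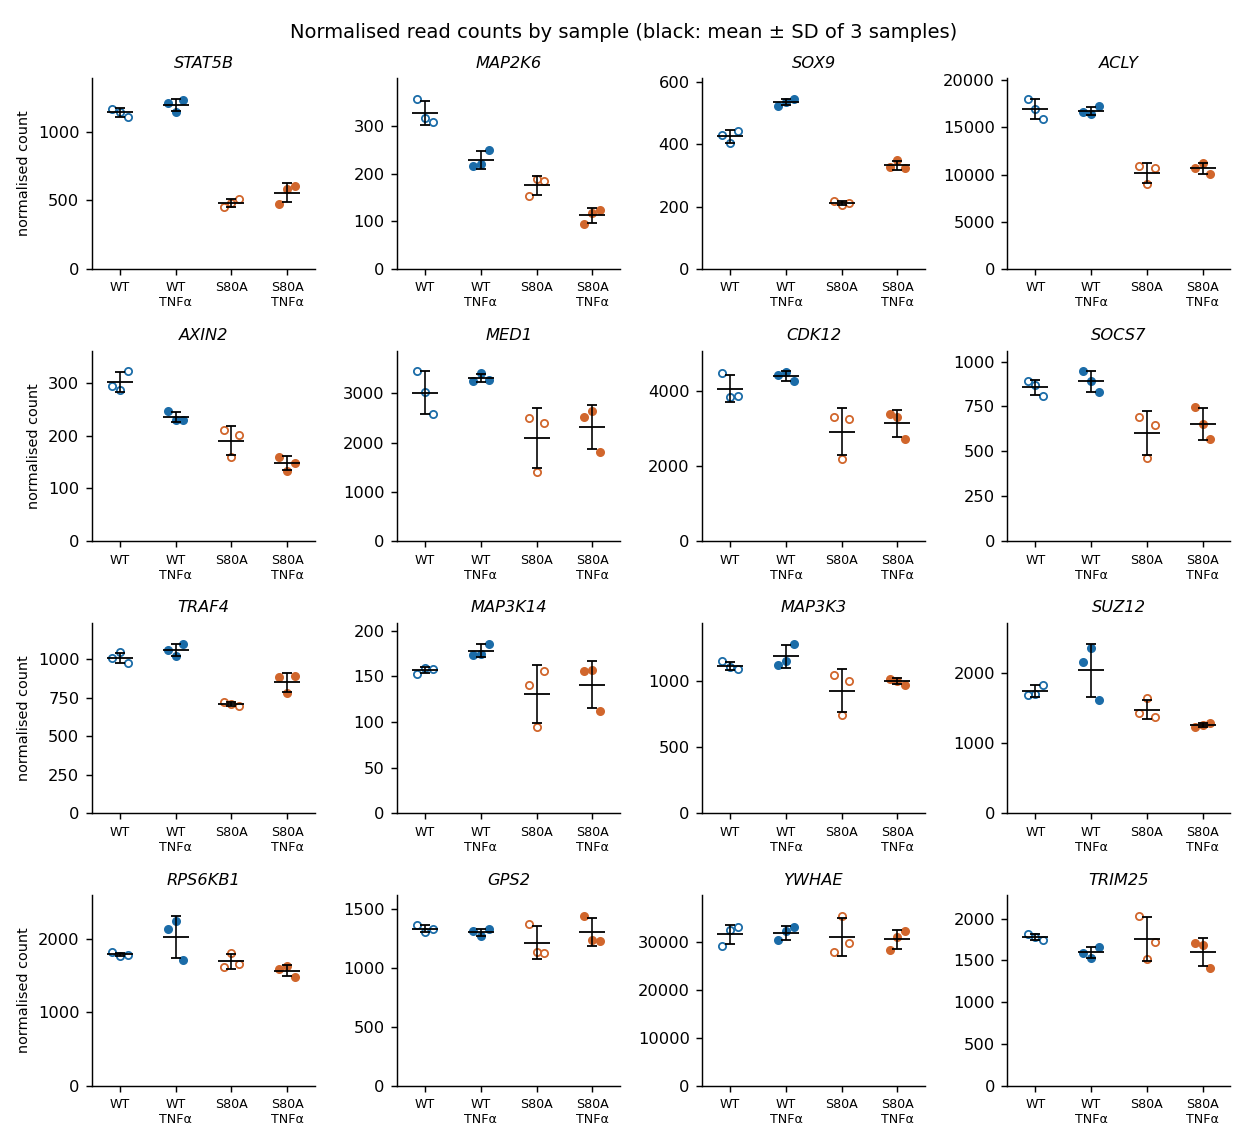
Normalised counts of 16 genes in each of the 12 samples, WT in blue and *NFKB1* S80A in orange, open circles untreated and filled circles after TNFα, with the mean and SD of 3 samples in black. *STAT5B*, *MAP2K6*, *SOX9*, *ACLY* and *AXIN2* show a full gap between the genotypes, *GPS2*, *YWHAE* and *TRIM25* overlap, and *SOX9* rises while *MAP2K6* falls with TNFα.

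*GPS2*, *YWHAE*, *TRIM25* and *SOCS3* had a mean difference above -0.1, and in all 4 the genotypes overlapped under both conditions. *YWHAE*, which encodes 14-3-3 epsilon, a scaffold for phosphorylated proteins, had 29258, 32464 and 33050 normalised counts in untreated WT and 27932, 35448 and 29817 in untreated S80A cells, a log2 fold change of -0.02 ± 0.09. After TNFα it had 30324, 32342 and 33021 against 28299, 31107 and 32264, a change of -0.06 ± 0.09. *YWHAE* has no 75-base stretch in common with another annotated gene, whereas its 6 nearest tested neighbours had a median of -0.26 untreated and -0.16 after TNFα.

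*TRIM25*, a ubiquitin ligase of the RIG-I antiviral pathway, had 1815, 1779 and 1747 normalised counts in untreated WT and 2033, 1519 and 1718 in untreated S80A cells, and 1589, 1534 and 1661 against 1707, 1680 and 1408 after TNFα. Its changes were -0.02 ± 0.10 and 0.00 ± 0.10, and lay between -0.14 and 0.08 with any library left out. Its 6 nearest tested neighbours were also near 0 at the median, with -0.06 and -0.11, although *COIL*, next to it, was at -0.64 and -0.74. *TRIM25* overlaps *C17orf67* on its own strand and *DGKE* on the opposite strand, and whether the counting used strand is not stated. Listed genes that were called lower, such as *ERBB2*, *FLII*, *HDAC5*, *PFN1* and *NUP88*, overlap other tested genes as well.

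*GPS2*, a subunit of the NCOR corepressor complex that also restrains JNK and ubiquitin signalling, had 1361, 1303 and 1327 normalised counts in untreated WT and 1371, 1134 and 1125 in untreated S80A cells. After TNFα it had 1306, 1265 and 1325 against 1438, 1235 and 1227. The changes were -0.14 ± 0.09 and 0.00 ± 0.09. All of its 75-base stretches occur in another annotated gene, so its counts carry an uncertainty that the SE does not show. *SOCS3*, the feedback inhibitor of STAT3 signalling, had only 3.11 to 13.2 normalised counts in any sample, and its changes of 0.33 ± 0.45 and 0.29 ± 0.43 were too imprecise to place it on either side of the chromosome's shift.

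Among receptor tyrosine kinase and RAS genes 2 of the 5 tested members, *ERBB2* and *GRB2*, were called lower in each comparison. Of the other chromosome 17 genes 31.4% were called lower untreated and 24.2% after TNFα, and of all genes 4.21% and 4.44%. The 5 estimates ran from -0.17 to -0.52 untreated and from -0.23 to -0.43 after TNFα. *ERBB2*, the HER2 receptor, had 1302, 1309 and 1350 normalised counts in untreated WT and 899, 895 and 976 in untreated S80A cells, with no overlap and a log2 fold change of -0.52 ± 0.08. After TNFα the change was -0.41 ± 0.09. *GRB2*, the adaptor between receptors and RAS, was lower by -0.28 ± 0.08 and -0.29 ± 0.08. Its calls passed in 2 and 5 of the 12 fits with a library left out, those of *ERBB2* in 12 and 11. The adaptor *CRK*, at -0.20 ± 0.07 and -0.23 ± 0.07, did not pass. Nor did *NF1*, at -0.38 ± 0.19 and -0.43 ± 0.19, which had 887 normalised counts in untreated S80A replicate 2 where replicates 1 and 3 had 1450 and 1423. Without that library the untreated difference was -0.18, and without treated S80A replicate 3 the treated one was -0.25. *PRKCA*, a protein kinase C, was at -0.17 ± 0.13 and -0.23 ± 0.13, did not pass, and its samples overlapped. Without the same 2 libraries its differences were -0.02 and -0.13.

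Of the kinases and adaptors next to NF-κB, *TRAF4* was called lower in both comparisons and *MAP3K14*, *MAP3K3* and *STAT3* in neither. *TRAF4*, an atypical member of the TRAF adaptor family, had 1005, 1043 and 977 normalised counts in untreated WT and 721, 708 and 694 in untreated S80A cells, then 1058, 1022 and 1100 against 880, 777 and 888 after TNFα. The gap was complete at both conditions, with differences of -0.51 ± 0.08 and -0.32 ± 0.08, the untreated one with an interval below the chromosome's median. *MAP3K14* had 153, 159 and 158 against 141, 94.9 and 156 in untreated cells and 173, 174 and 186 against 156, 157 and 112 with TNFα.

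Untreated *MAP3K14* overlapped, since S80A replicate 3 reached the WT values, and its differences were -0.25 ± 0.17 and -0.33 ± 0.17. They became -0.07 without untreated S80A replicate 2 and -0.19 without treated S80A replicate 3. *MAP3K3*, known as MEKK3, had 1150, 1106 and 1087 against 1043, 744 and 997, and then 1119, 1152 and 1283 against 1018, 1000 and 973. The samples did not overlap, with differences of -0.26 ± 0.11 and -0.25 ± 0.11, and the untreated one was -0.12 without untreated S80A replicate 2. *STAT3*, the STAT of interleukin-6 signalling, was at -0.30 ± 0.10 and -0.29 ± 0.10.

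The mTOR pathway genes *RPTOR*, which encodes the Raptor subunit of mTORC1, and *RPS6KB1*, the S6 kinase, differed by -0.38 ± 0.17 and -0.08 ± 0.09 in untreated cells and by -0.19 ± 0.17 and -0.37 ± 0.09 after TNFα, and only *RPS6KB1* after TNFα was called lower. *RPTOR* had 835 normalised counts in untreated S80A replicate 2, where replicates 1 and 3 had 1635 and 1379, and its untreated difference was -0.15 without that library. The 4 genes of mitosis and DNA synthesis lay close together in untreated cells, from -0.23 for *BIRC5*, the survivin gene, to -0.36 for the mitotic kinase *AURKB*, with *TK1*, thymidine kinase, at -0.35 and *TOP2A*, topoisomerase II alpha, at -0.31. None of the 4 was called lower in untreated cells. After TNFα they ran from -0.21 to -0.46, and only *TOP2A* was called lower then. The *AURKB* difference was -0.21 without untreated S80A replicate 1. Of the DNA repair and checkpoint genes, *PPM1D*, the phosphatase that turns off p53 signalling, was lower by -0.34 ± 0.08 and -0.41 ± 0.08. *BRCA1*, *RAD51C* and *BRIP1*, which act in homologous recombination or in the repair of crosslinks, were at -0.16 to -0.18 untreated and -0.13 to -0.32 after TNFα, and were called in neither comparison.

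The 8 chromatin genes lay close together in untreated cells, with differences of -0.23 to -0.41 and an SD of 0.06 between genes, and 4 of them were called lower. They comprise the SWI/SNF subunits *SMARCE1* and *SMARCD2*, the Polycomb genes *EZH1*, *SUZ12*, *CBX2* and *CBX8*, the deacetylase *HDAC5* and the NuRD remodeller *CHD3*. After TNFα they ranged from -0.15 for *EZH1* and *CHD3* to -0.70 for *SUZ12*, and 2, *SMARCE1* and *SUZ12*, were called lower. The shares called lower were 31.4% and 24.2% of the other chromosome 17 genes, untreated and after TNFα, and 4.21% and 4.44% of all genes. The untreated calls, of *CBX2*, *SMARCD2*, *HDAC5* and *EZH1*, passed in 11, 7, 4 and 0 of 12 fits with a library left out. Among nuclear receptor cofactors, *RARA*, a retinoic acid receptor, was at -0.49 ± 0.11 and -0.24 ± 0.11. *FLII*, a coactivator and actin-binding protein, was at -0.40 ± 0.09 and -0.27 ± 0.09, and both were called in untreated cells only. The corepressor *NCOR1*, at -0.29 ± 0.15 and -0.25 ± 0.15, was called in neither, and its untreated difference was -0.09 without untreated S80A replicate 2.

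The 5 genes of transcription and splicing had a median of -0.17 in both comparisons. Apart from *CDK12* they ran from -0.08 for the splicing factor *SRSF1* to -0.26 ± 0.23 for *POLR2A*, the largest subunit of RNA polymerase II, in untreated cells. *POLR2A* was spread widely, with 8343, 3745 and 6715 normalised counts in the untreated S80A samples, and its difference was 0.01 without replicate 2 of these. *SRSF2*, another splicing factor, and the RNA helicase *DDX5* overlapped between genotypes at both conditions.

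Of the 8 abundant housekeeping, transport and cytoskeletal genes, 6 were called lower in untreated S80A cells, where 4.21% of all genes and 31.4% of the other chromosome 17 genes were, and 4 after TNFα, against 4.44% and 24.2%. In untreated cells the 7 other than *YWHAE* ran from -0.24 for *CLTC*, the clathrin heavy chain, to -0.49 for *P4HB*, protein disulphide isomerase. *ACTG1*, gamma actin, had 63392, 67413 and 68515 normalised counts in untreated WT and 44988, 54717 and 53759 in untreated S80A cells, a difference of -0.38 ± 0.09 with no overlap. *KPNA2*, a nuclear import receptor, was at -0.40 ± 0.10, *COPS3*, of the COP9 signalosome, at -0.33 ± 0.08, *PFN1*, profilin, at -0.34 ± 0.09 and *NUP88*, of the nuclear pore, at -0.32 ± 0.09. After TNFα *COPS3*, *KPNA2*, *P4HB* and *CLTC* were called, and *PFN1* was at -0.18, *NUP88* at -0.24 and *ACTG1* at -0.31 without passing. Those 4 calls passed in 9, 3, 11 and 3 of 12 fits with a library left out. The untreated calls of *COPS3*, *KPNA2*, *P4HB*, *ACTG1*, *PFN1* and *NUP88* passed in 8, 8, 12, 9, 4 and 4. With GC correction the untreated differences of *PFN1* (edgeR adjusted p = 0.112) and *ACTG1* (edgeR adjusted p = 0.068) did not pass.

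Genes on other chromosomes that belong to the same families and complexes had a pooled median near 0. The comparison list held 155 tested genes, such as other MAP kinase kinases, STATs, Polycomb, Mediator, SWI/SNF and clathrin genes, and their median difference was 0.02 in untreated cells and -0.00 after TNFα, against 0.01 and -0.00 for all tested genes. The medians of single families ran from -0.18, for the 5 chromosomal passenger and replication genes, all negative and none called, to 0.09 in untreated cells, and from -0.15, for the 7 nuclear transport genes, of which 5 were negative and 1 called, to 0.14 after TNFα. In untreated cells 1 was called lower, *SCD*, a fatty acid desaturase (-0.28), and 1 higher, the Polycomb gene *CBX7* (0.47), where 6.26% of all genes were called in either direction. After TNFα 5 were called lower (among them *KPNA3*, *PFN2*, *SCD* and *CHUK*, by -0.32 to -0.46) and 4 higher (*MAP2K2*, *MAP2K5*, *CBX7* and *RELB*, by 0.32 to 0.60), against 7.36% of all genes. These counts rest on few libraries: the untreated 2 were 0 without any of the 3 untreated WT samples or untreated S80A replicate 1 and 1 without untreated S80A replicate 3 or WT TNFα replicates 1 or 2, and the 9 were 2 without WT TNFα replicate 1 or 2 or S80A TNFα replicate 3, 4 without S80A TNFα replicate 1 or 2, 14 without untreated S80A replicate 2 and 17 without WT TNFα replicate 3.

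The response to TNFα was not used to list the genes, and few of them responded. In WT cells the median change was 0.02, with a range of -0.52 to 0.33, and 0 of 56 genes were called by edgeR, where 0.688% of all genes were. At an unadjusted p under 0.05 there were 5 (5.97% of all genes), and DESeq2 called 2, *SOX9* and *MAP2K6*. In *NFKB1* S80A cells the median was 0.07, with a range of -0.65 to 0.66, and 2 of 56 were called, against 1.26% of all genes, and 6 had an unadjusted p under 0.05 (9.59% of all genes).

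*SOX9* rose with TNFα in S80A cells, from 217, 204 and 212 to 326, 349 and 324 normalised counts, which is 0.66 ± 0.09 on the log2 scale (edgeR adjusted p = 0.000714). It was higher in 3 of 3 samples and passed with any library left out and under each of 10 other settings. In WT cells it went from 431, 403 and 443 to 524, 537 and 545, all 3 treated samples above all 3 untreated ones, a change of 0.33 ± 0.08 (edgeR adjusted p = 0.12). The adjusted p in WT cells reached 0.042 with a GC correction and 0.0474 with DESeq2.

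*MAP2K6* fell with TNFα in S80A cells by 0.65 on the log2 scale, with an SE of 0.14 (edgeR adjusted p = 0.0321), from 152, 189 and 185 to 94, 118 and 124 normalised counts. In WT cells the change was -0.52 ± 0.13 (edgeR adjusted p = 0.0982), from 357, 316 and 309 to 215, 219 and 249. All 3 treated samples lay below all 3 untreated samples in either genotype. The S80A call passed without 4 of the 12 libraries and under 7 of 10 other settings, and it was lost without untreated WT replicate 2 or 3, WT TNFα replicate 1 or 2, untreated S80A replicate 2 or 3, or S80A TNFα replicate 1 or 2, with edgeR adjusted p-values of up to 0.197. The GC-corrected value was -0.53 (adjusted p = 0.161).

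Other genes had an unadjusted p under 0.05 in at least 1 genotype and did not pass edgeR's adjusted test. The Polycomb genes *CBX8* and *CBX2* were at -0.46 ± 0.14 and -0.31 ± 0.09 in WT cells and at -0.35 ± 0.14 and -0.16 ± 0.09 in S80A cells. *AXIN2* was at -0.35 ± 0.12 and -0.37 ± 0.12. *TRAF4* was at 0.07 ± 0.08 in WT and at 0.26 ± 0.08 in S80A cells (edgeR adjusted p = 0.184), where all 3 treated samples exceeded all 3 untreated ones.

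Whether TNFα altered the lower level in S80A cells was tested by the interaction of genotype and treatment, which is the difference between the 2 responses. None of the 56 genes, and none of the 14383, passed edgeR or any other setting run. The median interaction was 0.03 and 33 of 56 were positive, beside 51.1% of all genes. At an unadjusted p under 0.05 there were 3 listed genes, 5.36%, where 3.62% of all genes lay under it.

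These 3 genes were *SUZ12*, *SOX9* and *RPS6KB1*. *SUZ12*, a core subunit of Polycomb repressive complex 2, had 1674, 1692 and 1830 normalised counts in untreated WT and 2145, 2344 and 1612 in treated WT cells, against 1430, 1634 and 1362 and then 1224, 1260 and 1278 in S80A cells. Treated WT replicate 3 did not share the rise of replicates 1 and 2, and the interaction was -0.47 ± 0.16 (SE, edgeR adjusted p = 0.911). *RPS6KB1* had 1812, 1768 and 1773 and then 2136, 2236 and 1704 in WT, against 1614, 1808 and 1653 and then 1585, 1628 and 1483 in S80A cells.

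The *RPS6KB1* interaction was -0.29 ± 0.13 (SE, edgeR adjusted p = 0.911). As with *SUZ12*, treated WT replicates 1 and 2 were the high samples. These libraries and untreated S80A replicate 2, which had the highest count of its group for both genes, had lower values in GC-rich transcripts. *SOX9* was lowered less in treated than in untreated cells, with an interaction of 0.33 ± 0.12 (SE, edgeR adjusted p = 0.911).

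The interaction moved with the GC content of the transcripts. Over the 56 genes, which share the same libraries, Spearman's rho between them was 0.73, and over 13615 tested genes it was 0.65. The 28 genes with the lower GC content had a median interaction of -0.04 and the 28 others 0.12, and after a correction of each library for GC the medians were 0.05 and 0.00. The correction removes each library's trend with GC, so this flattening follows from how it was made. Whether GC content was the source of the interaction was not tested. With that correction the interaction was -0.23 for *SUZ12*, whose transcript has 38.2% GC, and -0.03 for *RPS6KB1* at 37.2% GC, and it was 0.28 for *SOX9* at 51.1% GC. The unadjusted edgeR p was then 0.0342 for *SUZ12*, 0.701 for *RPS6KB1* and 0.021 for *SOX9*, and none passed the adjusted test. The genotype shift itself stayed with the correction, at medians of -0.29 in untreated and -0.29 in treated cells, with 54 and 55 of 56 genes negative.

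**Figure D4:**
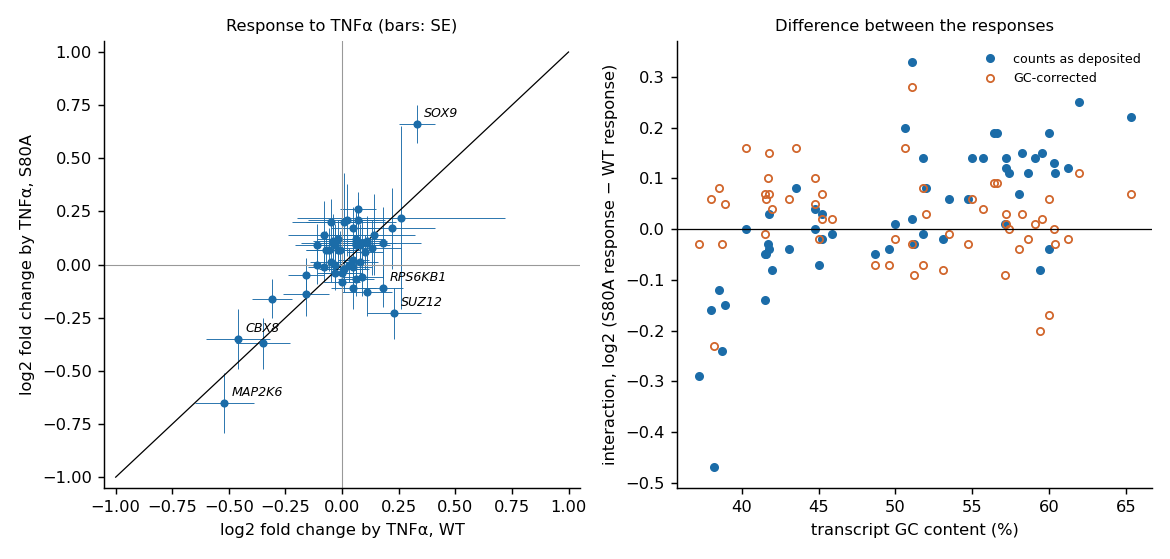
Left, log2 fold change by TNFα in WT (x axis) and in *NFKB1* S80A cells (y axis) for the 56 genes, with SEs and the line of equal response; *SOX9*, at 0.33 and 0.66, and *MAP2K6*, at -0.52 and -0.65, lie farthest from 0. Right, the interaction against the GC content of the transcript for the deposited counts (filled, rho 0.73) and after GC correction (open, rho -0.22).

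κB sites, the DNA elements that NF-κB dimers bind, were looked for in RefSeq promoters on GRCh38.p14, from 250 bases before to 50 after the start. Of 48 listed genes with an entry, 2 held a match to the κB consensus when both strands were searched, each on the strand opposite to the gene, 4.17%, beside 5.72% of all 27305 promoters. The matches are shown because these are the candidate elements nearest to the starts of these genes, with the 10 matching bases in capitals and 10 bases on each side, 5′ to 3′ along the gene's strand.
MAP2K3: cagttcggccGGGGTCTCCCcggcgctgcc
SMARCD2: tcctggatccGGAATCTCCCgggcaggagc
The *MAP2K3* match lies at chr17:21284690-21284699 on the minus strand and the *SMARCD2* match at chr17:63842875-63842884 on the plus strand, both within the genes as GENCODE draws them. Neither gene was called for TNFα in either genotype: *MAP2K3* was at -0.16 ± 0.08 in WT and -0.05 ± 0.08 in S80A cells, and *SMARCD2* at -0.08 ± 0.07 and -0.01 ± 0.07.

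The 250 bases before the start of *MAP2K6* are given below because this gene was lowered in S80A cells and fell with TNFα. They lie at chr17:69414447-69414696 on the plus strand and hold 0 matches to the κB consensus. Capitals mark the 1 match to GGGCGG or its reverse complement CCGCCC, the core of the GC box bound by SP1, which 42.3% of all promoters hold in the same 250 bases, and which 32 of the 48 listed genes hold.
MAP2K6: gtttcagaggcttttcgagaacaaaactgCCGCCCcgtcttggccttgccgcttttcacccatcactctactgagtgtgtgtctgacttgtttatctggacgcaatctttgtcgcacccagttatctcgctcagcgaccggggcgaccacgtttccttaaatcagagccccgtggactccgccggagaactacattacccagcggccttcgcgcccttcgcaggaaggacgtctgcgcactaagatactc
A match is a run of letters in these windows and was not tested as a bound site.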

How the data were processed

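RNA-seq reads of 12 HEK293T samples (3 per group) were aligned by the authors to GRCh38 with HISAT and counted per gene symbol with HTSeq-count; versions, counting options and use of strand are not given in the sources used here. The deposited values are raw counts. The authors' lists of TNFα-responsive genes, which hold their fold changes, p-values and size-factor normalised values, were not used. Of 33121 rows, 28 turned into dates were left out.

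Samples were grouped by their titles. The deposited description of WT TNFα replicate 3 repeats that of WT TNFα replicate 2, and the title and count column were used for both. The edgeR 4.0.16 package in R 4.3.3 was used for the tests, with filterByExpr (minimum count 10), TMM scaling, 1 quasi-likelihood fit of the 4 group means and Benjamini-Hochberg adjustment at 0.05 over 14383 genes. SEs are log2 fold changes divided by the square root of F. A normalised count is a count over its library's TMM-scaled size, set relative to the mean size. The steps were tested on simulated data. Where nothing shows separate cultures, p-values measure only the spread between samples.

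The genes, gene groups and comparison list were chosen with earlier results of these data known. The values of 1 gene of the comparison list are not reported here. Values per sample are given for the 8 lowest genes, those with a mean difference above -0.1, those called for TNFα, the 3 smallest interaction p-values and the NF-κB and MAP3K genes; *ERBB2* and *ACTG1*, and single samples of *FASN* and *POLR2A*, were added after their values were seen. Positions, GC content and shared 75-base stretches came from GENCODE on GRCh38, promoters from RefSeq. Alternatives were DESeq2 1.42.0, other scalings and filters, the replicate number as a block, GC correction, the 6 samples compared alone and each sample left out. Python 3.11.15 with pandas 2.3.3 and scipy 1.17.1 made the tables.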

Additional observations from a re-analysis of the deposited data

How the results depend on the processing

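No called value changed sign under any alternative run. The numbers of listed genes called by edgeR moved: 24 in untreated cells became 10 when only the 6 samples compared were fitted, and 19 after TNFα became 30 with GC correction and the block together. For TNFα in WT cells the 0 became 2 with DESeq2, 1 with GC correction, 2 with GC correction and the block, and 1 with the 6 samples alone; in S80A cells the 2 became 1 under the last 3 of these settings. Leaving out each sample gave 8 to 25 and 8 to 30 for the genotype, 0 to 0 and 1 to 2 for TNFα and 0 to 0 for the interaction, with medians of -0.36 to -0.29 and -0.29 to -0.25. Over all genes, 900 became 1582 with GC correction and the block and 456 with 6 samples, 99 for TNFα in WT became 161 with DESeq2, and 181 in S80A cells became 278 and 71. Leaving out each sample gave 354 to 1036, 432 to 1640, 65 to 145, 98 to 192 and 0 to 0. The 2 comparison genes called in untreated cells became 4 with DESeq2, 1 with total counts, 4 with the block, 6 with GC correction, 11 with both and 0 with 6 samples, and ranged from 0 to 3 and, after TNFα, from 2 to 17 with a sample left out.

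The samples share only a replicate number: same-numbered samples correlated between -0.099 and 0.495 in their deviations from the group means. With the replicate number as a block, 30 and 25 listed genes were called for the genotype, 0 and 2 for TNFα and 0 for the interaction, and 1232, 1469, 113, 208 and 0 of all genes. Precision rests on 3 samples per group, and genes such as *SOCS3* are limited by counts near 10.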
